A study of Mus musculus with 30 samples.

Results

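The genes described here make glucose in the liver or hold it as glycogen. They are the hepatic enzymes and transporters G6pc, Pck1, Fbp1, Pcx, Pygl, Gys2, Slc37a4 and Slc2a2, together with the coactivator Ppargc1a. The list was drawn up by pathway, with earlier results of these data known. Its members were found on the array through the gene symbol of the platform annotation. A probe was used when it was detected above the negative control beads (detection p under 0.05) on at least 7 of the 30 labelled arrays. Of the 9 listed genes, 8 had a probe under their symbol, 11 probes in all, and 9 of these probes passed, so that 8 of the 9084 genes tested are members. Gys2, the liver glycogen synthase, was not analysed here.

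Livers came from 14 germfree and 16 conventional C57BL/6J mice, the germfree animals raised without microbes and the conventional ones with a gut microbiota. Both groups shared the strain, a diet rich in fat given for 11 weeks and 10 h of food deprivation before death, so each comparison is between fasted animals on that diet. Each animal gave 1 Illumina bead array of labelled liver RNA, and age, sex, cage and array chip were not given in the sources used here. The design asks how livers without a microbiota differ, and the series title names resistance to diet-induced insulin resistance.

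During fasting the liver releases glucose that it takes from glycogen or builds from lactate, glycerol and amino acids. Pyruvate carboxylase and phosphoenolpyruvate carboxykinase carry pyruvate back up the pathway, fructose-1,6-bisphosphatase reverses the phosphofructokinase step, and glucose-6-phosphatase performs the final step shared with glycogen breakdown. Glucagon, acting through cyclic AMP and CREB, raises transcription of the genes for the carboxykinase, the phosphatase and the coactivator PGC-1α, and insulin represses them, in part through FOXO1.

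Levels are given as normalized log2 intensity, and changes as germfree minus conventional log2 values. Levels of different probes are not comparable, so genes are compared only by their changes. A gene passed when its adjusted p from limma, over all 9084 genes, was under 0.05. By that rule 6.49% of all genes passed (3.75% higher and 2.74% lower in germfree livers), and 18.7% had an unadjusted p under 0.05. Of the 8 member genes 4 passed, 1 higher and 3 lower in germfree livers, and 5 had an unadjusted p under 0.05. The median change of the 8 members was -0.16, beside -0.00 over all genes tested. The members that passed did not move in a single direction: the coactivator Ppargc1a was higher in germfree livers, and the enzymes Fbp1, Pcx and Pygl were lower.

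The mean raw signal of an array was 247 ± 73.6 in germfree and 245 ± 67.4 in conventional livers (SD, n = 14 and 16, permutation p = 0.936, two-sided). The share of probes detected was 38.4% in both groups. The summed level of hepatocyte markers was 168924 to 192351 intensity units in germfree and 163301 to 189781 in conventional livers, a ratio of 1.05, and 2 of 9 measured hepatocyte markers rose. Pericentral markers summed to 27139 to 41170 units in germfree and 24668 to 34463 in conventional livers (ratio 1.15, 4 of 9 rose), while periportal markers had a ratio of 0.980 (1 of 8 fell). Of the 9 pericentral log2 changes 5 were positive and 4 negative, from -0.54 to 0.50 with a median of 0.10. A sum of intensities weighs the brightest markers most. Lower sums in germfree livers were found for Kupffer cell markers (607 to 1113 units in germfree and 744 to 1494 in conventional livers, ratio 0.771, 3 of 8 fell) and bile duct markers (201 to 473 units in germfree and 358 to 956 in conventional livers, ratio 0.604, 1 of 3 fell). Of the 3 bile duct log2 changes 2 were negative and 1 positive, from -0.83 to 0.07 with a median of -0.05. Adipocyte markers had a ratio of 0.693 (adjusted permutation p = 0.0144, 1 of 4 fell), and stellate cell markers one of 1.17 (adjusted permutation p = 0.00823, 1 of 4 rose). Adjusted permutation p for the other sums was 0.00216 for hepatocyte and pericentral markers, 0.647 for periportal, 0.00762 for Kupffer cell and 0.00011 for bile duct markers. In bulk liver, fewer cells of a type and less RNA per cell cannot be told apart, and the part of these shifts in the results below was not tested.

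Because the genes for the coactivator, the carboxykinase and the phosphatase are textbook targets of cyclic AMP and insulin signalling, the stretch before their transcription start was read from RefSeq promoter entries on GRCm38.p6 (8 of the 9 listed genes matched, with 11 entries). The 250 bases before the start are shown 5′ to 3′ on the gene's strand, in lower case with motif matches in capitals. Pygl is shown beside them as a member of the glycogen branch.
G6pc, chr11:101367466-101367715, plus strand: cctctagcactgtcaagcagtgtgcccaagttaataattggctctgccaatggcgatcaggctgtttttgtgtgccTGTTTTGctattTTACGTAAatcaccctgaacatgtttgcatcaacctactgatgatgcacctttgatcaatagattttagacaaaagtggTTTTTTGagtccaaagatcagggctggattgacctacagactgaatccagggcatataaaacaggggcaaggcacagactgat
Pck1, chr2:173152823-173153072, plus strand: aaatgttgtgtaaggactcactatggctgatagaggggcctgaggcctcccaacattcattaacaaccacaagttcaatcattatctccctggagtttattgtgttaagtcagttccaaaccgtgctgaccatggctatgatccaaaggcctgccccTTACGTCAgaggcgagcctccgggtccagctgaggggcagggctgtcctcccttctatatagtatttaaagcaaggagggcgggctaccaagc
Ppargc1a, chr5:51567726-51567975, minus strand: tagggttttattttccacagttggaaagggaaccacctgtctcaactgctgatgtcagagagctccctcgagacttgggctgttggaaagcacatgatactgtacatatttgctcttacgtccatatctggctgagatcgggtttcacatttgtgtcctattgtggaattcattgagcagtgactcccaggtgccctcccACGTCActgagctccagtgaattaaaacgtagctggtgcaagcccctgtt
Pygl, chr12:70227684-70227933, minus strand: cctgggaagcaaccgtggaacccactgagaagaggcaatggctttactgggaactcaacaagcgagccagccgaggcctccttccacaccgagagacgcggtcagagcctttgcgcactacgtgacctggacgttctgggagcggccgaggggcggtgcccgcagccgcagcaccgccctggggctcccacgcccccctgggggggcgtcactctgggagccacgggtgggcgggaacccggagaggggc

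The motifs were searched on both strands. The cyclic AMP response element type TNACGTNA lay 162 to 155 bases before the G6pc start and 93 to 86 bases before the Pck1 start, and 3.83% of 32851 RefSeq promoter windows of this length hold it. The shorter core ACGTCA, held by 6.47% of windows, lay 50 to 45 bases before the Ppargc1a start and overlapped the longer match in Pck1. It was also found in 2 of the Slc37a4 entries, 61 to 56 and 214 to 209 bases before their starts. The Ppargc1a start used here lies inside the gene's listed span of 51454249 to 52115853 on the minus strand. Any start of that gene farther upstream was not searched. The insulin response type TNTTTTG, held by 16.9% of windows, matched in G6pc 174 to 168 and 83 to 77 bases before the start and in Slc2a2 211 to 205 bases before it, and had no match in the Pck1 and Ppargc1a windows. The Pygl, Fbp1 and Pcx windows held none of the 3 motifs. A match is a description of the sequence and not a binding site.

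Ppargc1a encodes PGC-1α, which coactivates gluconeogenic and mitochondrial genes. Its level was 5.25 at the lowest, 6.32 at the median and 6.97 at the highest among the 14 germfree livers, and 4.71, 5.34 and 6.18 among the 16 conventional livers. The groups overlapped in their middle: 8 germfree livers lay above every conventional one, and 8 conventional livers lay below every germfree one. The mean was 6.10 ± 0.62 in germfree and 5.40 ± 0.43 in conventional livers (SD, n = 14 and 16), a log2 change of 0.71 ± 0.18 (SE, 95% interval 0.34 to 1.07, 1.63-fold, limma adjusted p = 0.0124). The probe was detected in 14 of 14 germfree and 14 of 16 conventional livers, close enough to background for the offset of 16 units to shrink the fold. Without the 3 arrays of mean raw signal under 160 (2 germfree and 1 conventional) the change was 0.60 and did not pass (limma adjusted p = 0.0556). The change was 0.38 with no background correction and 0.40 in the authors' deposited normalized values, and it passed in both (limma adjusted p = 0.0147 and 0.0142). In these 2 settings and without the dim arrays the change of G6pc was the larger (0.64, 0.64 and 0.65). The gene's other probe was detected on 0 of 30 arrays.

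G6pc is the catalytic subunit of glucose-6-phosphatase, the enzyme that releases free glucose from the hepatocyte. Its level ran from 10.92 through a median of 11.67 to 12.32 in germfree livers, and from 9.02 through 11.11 to 11.93 in conventional livers. The germfree livers were the more compact group, with 13 of 14 above the conventional mean, whereas 5 conventional livers lay below the lowest germfree one. The mean was 11.68 ± 0.45 in germfree and 11.02 ± 0.74 in conventional livers (SD, n = 14 and 16). The log2 change of 0.66 ± 0.21 (SE, 95% interval 0.23 to 1.09, 1.58-fold) missed the threshold narrowly (limma p = 0.00343, adjusted p = 0.0520). Conventional liver 14, at 9.02, was the lowest of all, and without it the change was 0.53 (limma adjusted p = 0.0594). G6pc did pass in 9 of the 30 fits that each left out 1 liver, with adjusted p between 0.0305 and 0.0844 over the 30, and in 5 of the 16 other settings tried. The sign was positive in all of these fits.

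Slc37a4 carries glucose 6-phosphate into the endoplasmic reticulum, where the phosphatase acts. Its level was 9.14 at the lowest, 9.86 at the median and 10.50 at the highest in germfree livers, and 9.62, 10.04 and 10.21 in conventional livers. The germfree livers extended past the conventional ones on both sides, with 4 below the lowest and 3 above the highest conventional liver. The mean was 9.86 ± 0.38 in germfree and 10.01 ± 0.18 in conventional livers (SD, n = 14 and 16). The log2 change of -0.15 ± 0.10 (SE, 95% interval -0.36 to 0.06) did not pass (limma adjusted p = 0.467). The difference in spread was not tested.

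Slc2a2 encodes GLUT2, the main glucose transporter of the hepatocyte membrane. Germfree livers ran from 5.79 through 6.75 to 7.30, and conventional livers from 6.02 through 6.81 to 7.71, with nearly complete overlap. The means were 6.67 ± 0.42 in germfree and 6.84 ± 0.49 in conventional livers (SD, n = 14 and 16), a log2 change of -0.17 ± 0.16 (SE, 95% interval -0.49 to 0.15, limma adjusted p = 0.627). A second probe, detected in 11 of 14 germfree and 15 of 16 conventional livers, had the same sign and a larger change of -0.41 ± 0.21 (SE, limma adjusted p = 0.296 over all 10525 probes, of which 5.73% passed, 3.28% higher and 2.45% lower in germfree livers, and 18.1% had an unadjusted p under 0.05). A further probe was detected on 0 of 30 arrays.

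**Figure D1:**
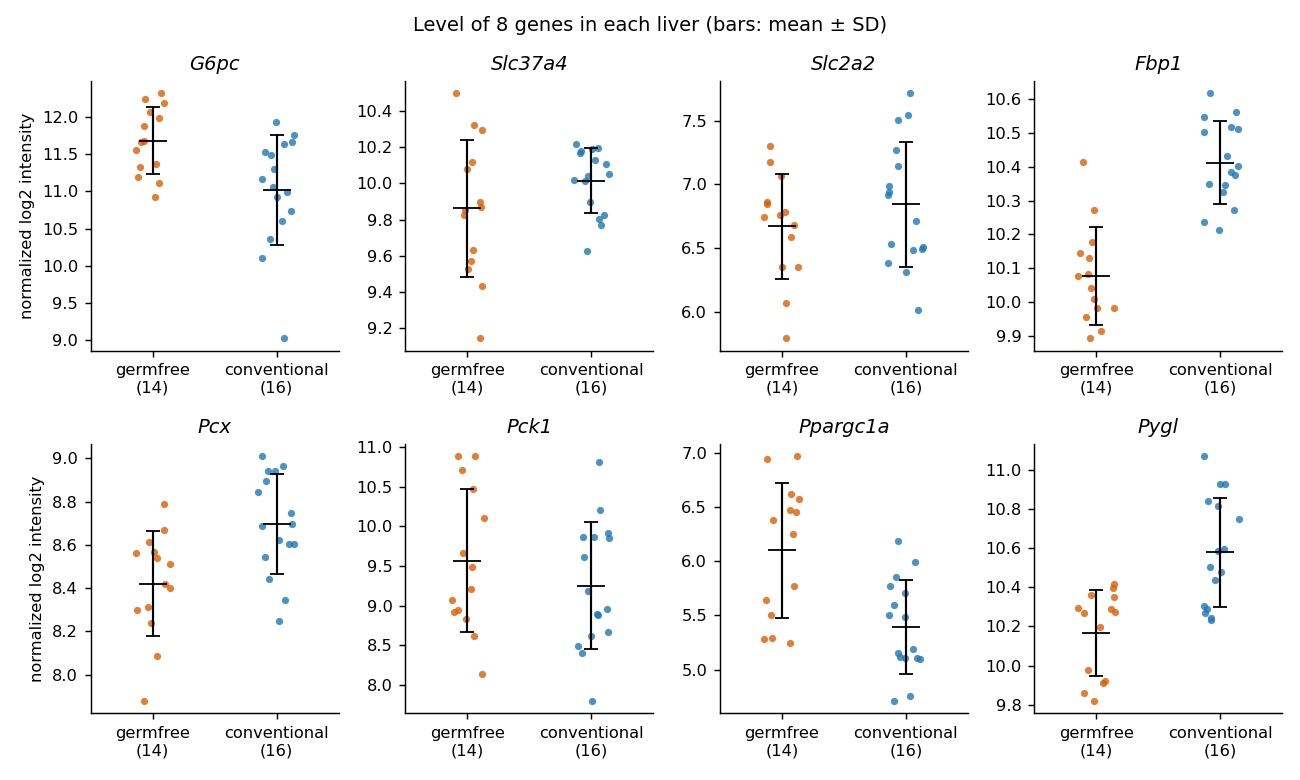
Normalized log2 intensity of each of the 8 measured member genes in every liver, germfree left of conventional, with points for single livers and bars for the group mean and SD (n = 14 and 16). Ppargc1a lies higher and Fbp1, Pcx and Pygl lie lower in germfree livers, and the Pck1 points spread over about the same range in both groups.

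Pck1 encodes the cytosolic phosphoenolpyruvate carboxykinase, a classic fasting-induced gene. Germfree livers ran from 8.13 through a median of 9.35 to 10.89, and conventional livers from 7.79 through 9.07 to 10.82. The ranges almost coincided, and 7 of 14 germfree livers lay above the conventional mean. The means were 9.57 ± 0.90 in germfree and 9.25 ± 0.80 in conventional livers (SD, n = 14 and 16), a log2 change of 0.32 ± 0.29 (SE, limma adjusted p = 0.621). Its 95% interval, -0.26 to 0.90, holds the change measured for G6pc as well as 0. The spread of Pck1 between livers of a group was at percentile 99.5 of all genes tested, that of G6pc at percentile 98.5 and that of Fbp1 at percentile 1.82. Genes of the same pathway thus lay near both extremes of variation between livers. Pck1 was divided by replicate number: germfree livers 1 to 5 lay at 10.11 to 10.89 and livers 6 to 14 at 8.13 to 9.66. Conventional livers 1 to 6 lay at 9.86 to 10.82 and livers 7 to 16 at 7.79 to 9.62. The sources give no batch or chip for these numbers, so a batch and a difference between animals cannot be told apart.

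Pcx is the mitochondrial pyruvate carboxylase, which supplies oxaloacetate to the carboxykinase. Germfree livers ran from 7.88 through 8.47 to 8.79 and conventional livers from 8.25 through 8.69 to 9.01. The groups overlapped over much of this range, although 13 of 14 germfree livers lay below the conventional mean. The means were 8.42 ± 0.24 in germfree and 8.70 ± 0.23 in conventional livers (SD, n = 14 and 16), a log2 change of -0.28 ± 0.09 (SE, 95% interval -0.45 to -0.10, limma adjusted p = 0.0466). This passed by a small margin: 21 of the 30 fits that each left out 1 liver lost the call, with adjusted p between 0.0213 and 0.0813, and the change lay between -0.31 and -0.23 in all 30.

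Fbp1 is the hepatic fructose-1,6-bisphosphatase. Its level was 9.89 at the lowest, 10.06 at the median and 10.41 at the highest in germfree livers, and 10.21, 10.39 and 10.62 in conventional livers. Of the germfree livers 12 of 14 lay below every conventional one, and germfree liver 9, the highest at 10.41, was within the conventional range. The means were 10.08 ± 0.14 in germfree and 10.41 ± 0.12 in conventional livers (SD, n = 14 and 16). Fbp1 fell, with a log2 change of -0.34 ± 0.06 (SE, 95% interval -0.45 to -0.22, limma adjusted p = 0.000175), which is 1.26-fold higher in conventional than in germfree livers. Its adjusted p was the smallest among the members although its change was smaller than those of Ppargc1a and G6pc.

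Pygl is the liver glycogen phosphorylase, which frees glucose 1-phosphate from glycogen. Germfree livers ran from 9.82 through 10.27 to 10.42, and conventional livers from 10.23 through 10.55 to 11.07. All 14 germfree livers lay below the conventional mean, and 11 of 16 conventional livers lay above the highest germfree one. The means were 10.17 ± 0.22 in germfree and 10.58 ± 0.28 in conventional livers (SD, n = 14 and 16), and the log2 change was -0.41 ± 0.09 (SE, 95% interval -0.60 to -0.23, limma adjusted p = 0.00364), 1.33-fold higher in conventional than in germfree livers. Fbp1 and Pygl passed in all 30 fits that each left out 1 liver. Under median scaling in place of quantile normalization 69 genes passed in all, Ppargc1a was the single member among them, and Fbp1, Pygl and Pcx did not pass (limma adjusted p = 0.488, 0.283 and 0.911), although their changes of -0.34, -0.40 and -0.26 were close to those above.

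**Figure D2:**
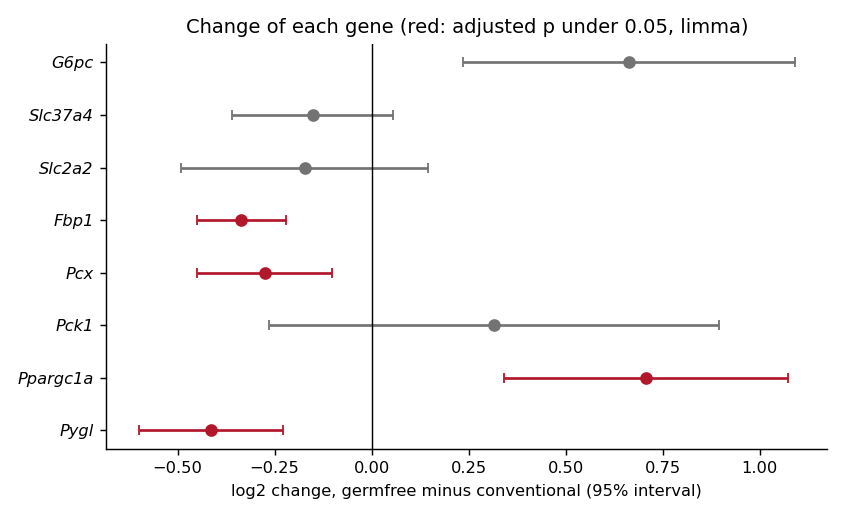
Log2 change, germfree minus conventional, of each member gene with its 95% interval from limma (14 against 16 livers). The intervals of Ppargc1a, G6pc, Fbp1, Pcx and Pygl do not reach 0, and those of Pck1, Slc37a4 and Slc2a2 do.

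Whether these genes vary together from animal to animal was asked with deviations of each liver from its own group mean, so that the group difference does not enter. All 28 pairs of member genes were tested over the 30 livers by permutation within groups, two-sided, with Benjamini-Hochberg adjustment over the 28. Of these, 5 pairs passed, 4 with a positive and 1 with a negative correlation, and by rank 4 pairs passed. The median r of the 28 pairs was 0.07, and 17 were positive, whereas the median over all pairs of tested genes was 0.00 with a range of -0.40 to 0.41 from the 5th to the 95th percentile.

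The closest pair was Pygl and Slc2a2, the phosphorylase and the glucose transporter, with r = 0.74 (permutation p = 1e-05, the smallest the permutations can give, adjusted p = 0.00028) and rho = 0.72 (permutation p = 1e-05). It was 0.66 within germfree and 0.79 within conventional livers, and 0.69 without the 2 livers farthest from the median. G6pc and Pygl followed, with r = 0.71 (permutation p = 4e-05, adjusted p = 0.000373) and rho = 0.75 (permutation p = 3e-05), 0.60 within germfree and 0.76 within conventional livers, and 0.74 without the 2 farthest livers. The transcripts of the phosphorylase and the phosphatase varied together within groups, although their changes between groups had opposite signs. Among the 9083 other genes tested, Slc2a2 ranked 2nd and G6pc 6th by r with Pygl. Taken the other way, Pygl ranked 18th by r with Slc2a2 and 13th by r with G6pc. An r as large in size as that of Pygl and Slc2a2 was found for 0.0951% of all gene pairs.

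G6pc and Slc37a4, which act as 1 system in the endoplasmic reticulum, had r = 0.45 (permutation p = 0.0025, adjusted p = 0.0140) and rho = 0.51 (permutation p = 0.003), 0.56 within germfree and 0.53 within conventional livers, and 0.50 without the 2 farthest livers. G6pc and Slc2a2 had r = 0.56 (permutation p = 0.00179, adjusted p = 0.0125) and rho = 0.46 (permutation p = 0.0138), with 0.32 within germfree and 0.67 within conventional livers. This pair did not pass by rank (adjusted p = 0.0776) or without the 2 farthest livers (r = 0.44, permutation adjusted p = 0.101). Without conventional liver 14, the lowest in G6pc, neither pair passed (permutation adjusted p = 0.0602 and 0.0775).

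The negative pair was Pck1 and Pcx, neighbours in the pathway, with r = -0.71 (permutation p = 3e-05, adjusted p = 0.000373) and rho = -0.66 (permutation p = 9e-05). It was -0.68 within germfree and -0.74 within conventional livers, and -0.67 without the 2 farthest livers. Both genes followed the first principal component of variation within groups, an axis over all tested genes whose sign is arbitrary and which held 15.1% of that variance. Pck1 had r = -0.85 with it (permutation p = 1e-05, rho = -0.80) and Pcx r = 0.76 (permutation p = 1e-05, rho = 0.76), both with adjusted p = 0.00048 over 96 relations of members with array measures. With that component regressed out, Pck1 and Pcx had r = -0.18 (permutation adjusted p = 0.798), and under median scaling r = -0.14 (adjusted p = 0.579). That component was negative in germfree livers 1 to 5 and conventional livers 1 to 6 and positive in the others except conventional liver 16. Pcx lay at 7.88 to 8.31 in germfree livers 1 to 5 and 8.40 to 8.79 in livers 6 to 14. Conventional livers overlapped, at 8.25 to 8.75 in 1 to 6 and 8.60 to 9.01 in 7 to 16. The permutations ignored these numbers, so the p-values do not separate a step along them from variation between animals. The relations of Pck1 and of Pcx below share this limit.

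The pairs joining G6pc, Pck1 and Ppargc1a did not pass. G6pc and Pck1 had r = 0.20 (permutation p = 0.299, adjusted p = 0.597; rho = 0.17, permutation p = 0.375), with 0.30 within germfree and 0.15 within conventional livers. As large an r was found for 43.9% of all gene pairs. Ppargc1a had r = 0.13 with G6pc (permutation p = 0.472, rho = 0.08, permutation p = 0.679) and r = 0.07 with Pck1 (permutation p = 0.736, rho = 0.07, permutation p = 0.730). For Ppargc1a these were -0.16 with G6pc and -0.13 with Pck1 within germfree livers, and 0.36 and 0.35 within conventional livers. Within germfree livers alone 0 of the 28 pairs passed (4 by unadjusted permutation p under 0.05), and within conventional livers 4 did, with adjustment over both groups' 56 tests. The difference in correlation between the groups was not tested.

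**Figure D3:**
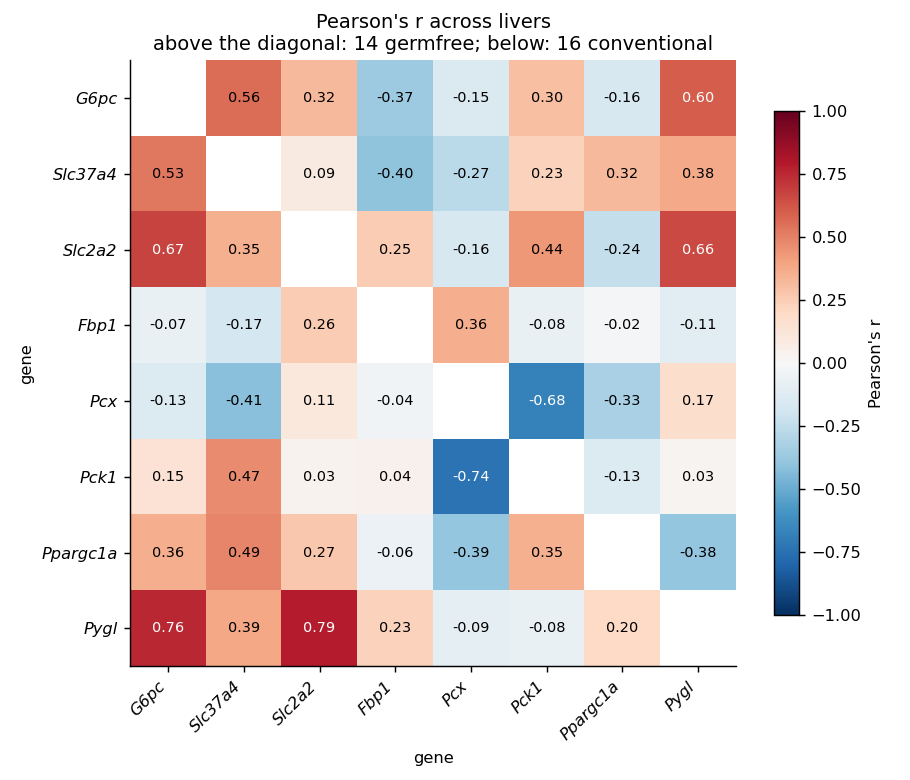
Pearson's r for each of the 28 pairs of member genes, across 14 germfree livers above the diagonal and 16 conventional livers below it. Values are given as germfree and conventional. Pygl with Slc2a2 (0.66 and 0.79) and with G6pc (0.60 and 0.76) are the largest positive values of each group. Pck1 with Pcx (-0.68 and -0.74) is the largest negative one, and G6pc with Pck1 is 0.30 and 0.15.

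**Figure D4:**
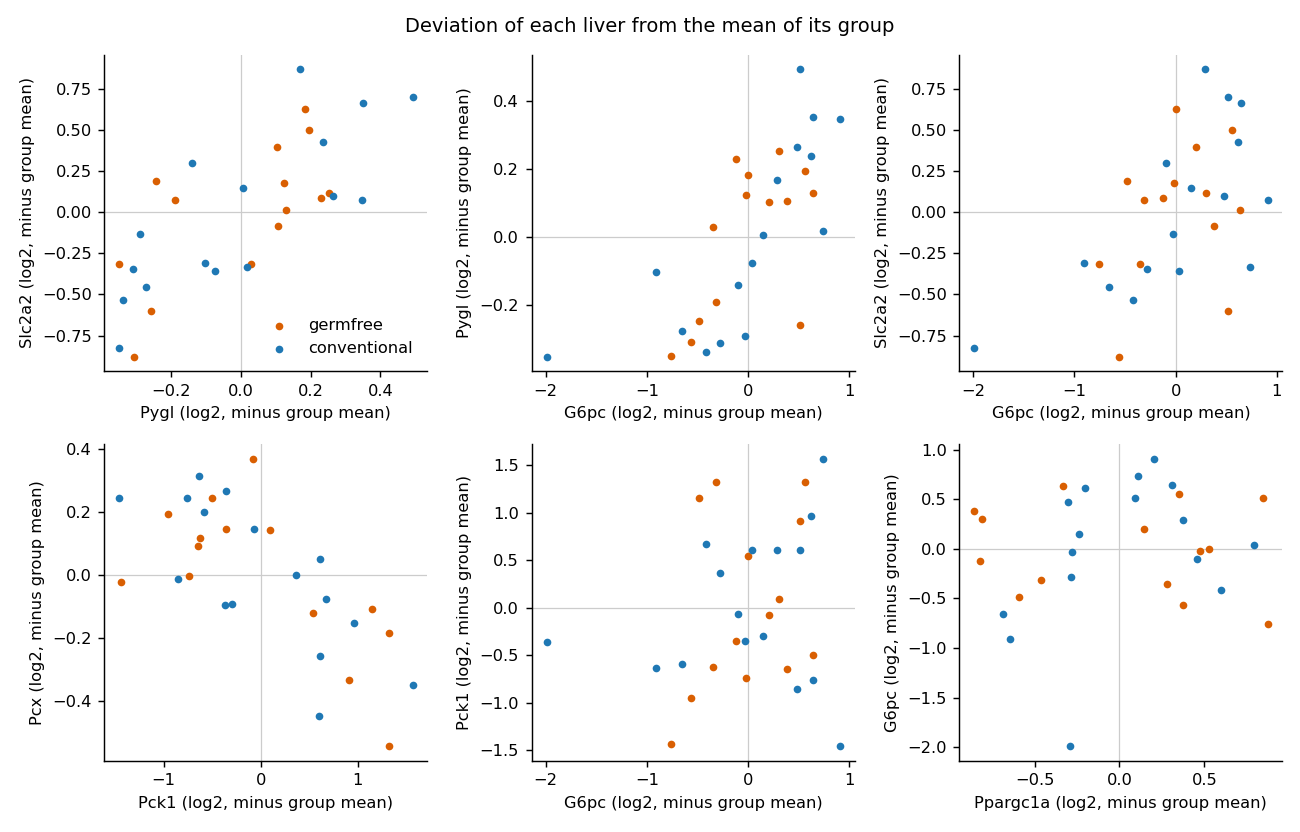
Deviation of each liver from its group mean (log2) for selected pairs of member genes, with germfree and conventional livers in separate colours. Points of both groups slope upward for Pygl with Slc2a2 and G6pc with Pygl and downward for Pck1 with Pcx, and they scatter for G6pc with Pck1 and Ppargc1a with G6pc.

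Further members went with measures of the whole array, over the same 96 relations. G6pc had r = 0.56 with the summed hepatocyte markers (permutation p = 0.00176, adjusted p = 0.0282, rho = 0.53) and r = -0.62 with the summed bile duct markers (permutation p = 0.00059, adjusted p = 0.0142, rho = -0.51), or 0.54 and -0.42 without the 2 farthest livers. Pck1 had r = 0.58 with the pericentral sum (permutation p = 0.0011, adjusted p = 0.0211, rho = 0.63), or 0.48 without the 2 farthest livers. Ppargc1a had r = 0.63 with the periportal sum (permutation p = 0.00039, adjusted p = 0.0125, rho = 0.60), or 0.58 without them. The part of these measures in the members' group changes was not tested. Mean raw signal and the detected share passed with no member.

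The genes most like each member, by r of within-group deviations over 30 livers among named genes outside the list, differed between the members. For G6pc they were Ciapin1 (0.84), Bckdk (0.77), Mycl (0.75), Paqr7 (0.75) and C130074G19Rik (0.75). For Pck1 they were Ndufb9 (0.94), Serpinc1 (0.91), Rgn (0.90), Eci2 (0.90) and Glul (0.89). Rgn and Glul are also on the pericentral marker list and enter its sum, and no other marker of that list was among these 5. A link of Pck1 with the zone was not tested. For Ppargc1a the closest genes were Mtf2 (0.77), Dag1 (0.76), Tshz1 (0.75), Sertad2 (0.75) and Gapvd1 (0.74). The first 2 were N4bp2 (0.82) and Ttc23 (0.74) for Pygl, and Ugt1a6a (0.85) and Adk (0.84) for Slc2a2. They were Gid8 (0.77) and Tmem38b (0.75) for Pcx, Zfp637 (0.78) and Lrrc61 (0.77) for Slc37a4, and Emd and Mrgpre (both 0.54) for Fbp1, whose closest genes were the least alike of any member's.

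Against 34 regulators and fasting genes, 20 of 272 relations passed, 11 positive and 9 negative. Those given here were chosen after their values were seen. The share of relations that would pass with genes outside these lists was not computed. Over all gene pairs, 6.48% had an r at least as large in size as 0.45, and 1.96% one as large as 0.56. Ppargc1a had r = 0.62 with Klf9, a glucocorticoid-induced transcription factor (permutation p = 0.00022, adjusted p = 0.00997, rho = 0.58), and r = 0.61 with Prkaca, the catalytic subunit of protein kinase A (permutation p = 0.0002, adjusted p = 0.00997, rho = 0.64). Pck1 had r = 0.65 with Igfbp1, an insulin-repressed binding protein (permutation p = 0.00011, adjusted p = 0.00997, rho = 0.62), with 0.65 within germfree and 0.66 within conventional livers. G6pc had r = -0.33 with Igfbp1 (adjusted p = 0.270) and r = 0.26 with Foxo1 (adjusted p = 0.411). G6pc and Ppargc1b, a relative of Ppargc1a, had r = 0.58 (permutation p = 0.00139, adjusted p = 0.0291, rho = 0.54), which was 0.00 within germfree and 0.80 within conventional livers and 0.40 without the 2 farthest livers. Slc37a4 had r = 0.65 with Prkaca (permutation p = 2e-05, adjusted p = 0.00272, rho = 0.70). Slc2a2 had r = -0.73 with the forkhead factor Foxa3 (permutation p = 1e-05, adjusted p = 0.00272, rho = -0.71), and Pygl r = -0.60 with Prkar1a, a regulatory subunit of protein kinase A (permutation p = 0.00062, adjusted p = 0.0171, rho = -0.61).

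Genes of the surrounding pathways were taken from 5 lists, chosen with earlier results of these data known. Of 136 listed genes outside the members 84 were tested, and 6 rose, 3 fell and 75 did not pass. Those past the threshold were 10.7%, beside 6.49% of all genes, and the median change was 0.00. Because of how the lists were chosen, the difference between these shares carries no test. Among 27 tested regulators of gluconeogenic genes 2 rose and none fell, with a median of 0.07. They were Klf15, a fasting-induced factor that acts on amino acid breakdown (0.43 ± 0.12, SE, limma adjusted p = 0.0274), and the deacetylase Sirt1 (0.32 ± 0.09, limma adjusted p = 0.0259). Foxo1, the insulin-restrained activator of G6pc, had a change of 0.37 ± 0.12 and did not pass (limma adjusted p = 0.0528).

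The opposing pathway, glycolysis with fructose entry, had 1 rise and 3 falls among 17 tested genes and a median of -0.14. Ketohexokinase Khk fell by 0.61 ± 0.11, triokinase Tkfc by 0.44 ± 0.10 and liver pyruvate kinase Pklr by 0.65 ± 0.16 on the log2 scale, and the aldolase Aldoc rose by 0.51 ± 0.11 (SE, limma adjusted p between 0.000229 and 0.00730). Enzymes of both directions were thus among the falls, Pcx and Fbp1 toward glucose and Pklr toward pyruvate.

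Among 20 tested genes of other gluconeogenic enzymes and substrate supply 1 rose, the amino acid transporter Slc38a2 (0.68 ± 0.19, SE, limma adjusted p = 0.0259), and the median was 0.00. The glycerol 3-phosphate dehydrogenases Gpd1 and Gpd2 each had a change of -0.27 and did not pass (limma adjusted p = 0.152 and 0.174). Of 14 other tested glycogen genes 0 passed in limma, with a median of -0.02, and 1 had an unadjusted p under 0.05. That was Ppp1r3b, the hepatic glycogen-targeting subunit of protein phosphatase 1 (-0.31 ± 0.14, SE, limma adjusted p = 0.206), followed by the glycogen-binding protein Stbd1 (-0.18) and the synthase kinase Gsk3a (0.08). Among the glycogen genes measured, members included, Pygl was the single one that passed. Of 7 tested insulin-repressed and fasting genes 2 rose, Igfbp1 (1.37 ± 0.32) and Igfbp2 (1.23 ± 0.16), Angptl4, a fasting-induced inhibitor of lipoprotein lipase, had a change of 0.24 ± 0.08 (SE, limma adjusted p = 0.0927), and the median was 0.24.

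**Figure D5:**
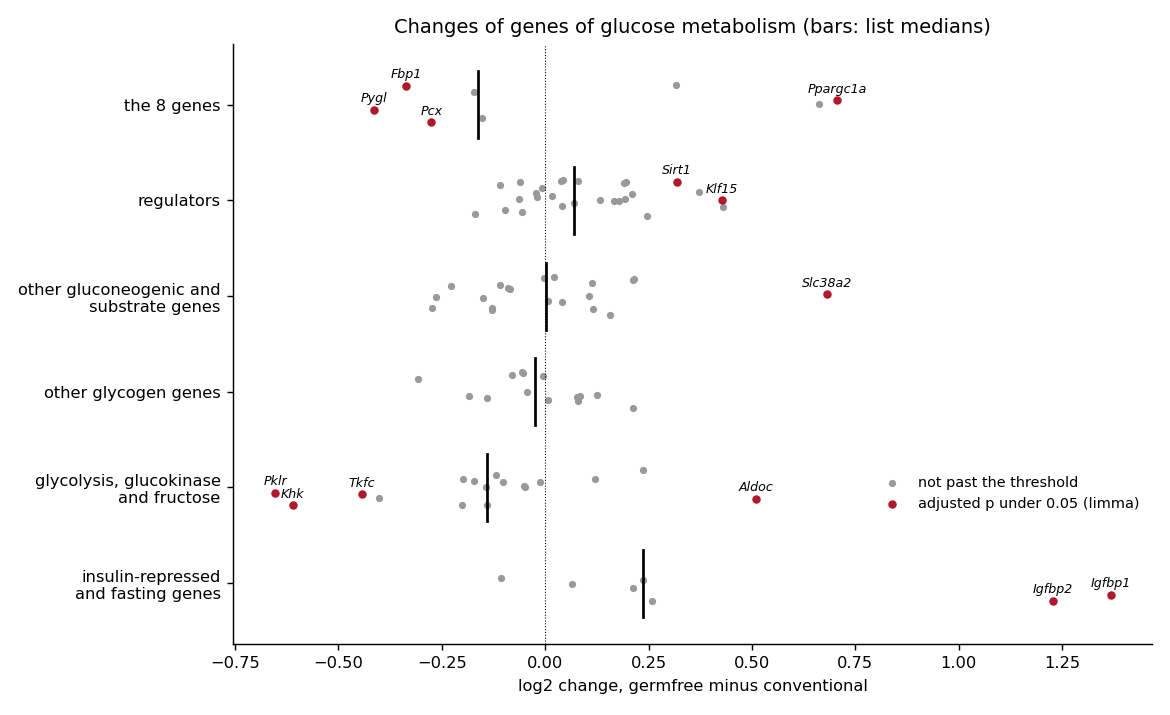
Log2 change, germfree minus conventional, of every tested gene of the member list and the 5 surrounding lists, 1 point per gene, with bars at list medians and genes past the limma threshold in red and named. Fructose entry and pyruvate kinase genes lie among the falls, Igfbp1 and Igfbp2 lie highest, and none of the other glycogen genes is red.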

How the data were processed

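Liver RNA of 14 germfree and 16 conventional mice was analysed from the deposited bead signals. Per the file headers, the authors' table holds the mean bead intensity of each probe without normalization, and beside it a detection p-value per probe and array. GenomeStudio is named in the submitters' processing notes, and its version is not given in the sources used here. Columns of 33 arrays without a sample in the labels were not used. The authors' deposited normalized intensity values of the same arrays served as an alternative.

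The neqc function (limma 3.58.1, R 4.3.3) subtracted a background estimated from the detection p-values, added an offset of 16, applied quantile normalization and took log2. Probes detected (p under 0.05) on at least 7 of 30 arrays were kept, 10525 of 24613. The brightest probe stood for a gene, giving 9084 genes, 7839 of them named. Groups were compared with limma's moderated test (two-sided), and p-values were adjusted by Benjamini-Hochberg across the tested genes. Correlations used 100000 permutations within groups (Python 3.11.15, scipy 1.17.1). The limma fit and the correlations were checked on simulated data. Replicates are arrays of separate animals per the labels, and their number limits the precision.

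Members and lists were chosen with earlier results of these data known. Named genes are all members, each other list's genes past the threshold and otherwise those with the smallest p, and for each member the named genes of highest r (5 for G6pc, Pck1 and Ppargc1a, 2 for the others). Of the marker lists, those not given above had ratios of 1.07 (endothelial) and 0.975 (acinar) between germfree and conventional livers, and none of 8 kidney markers passed the filter. The replicate numbers of the titles were checked for pairing: 7 of 14 same-numbered pairs correlated over 0.1 (-0.18 to 0.37, median 0.09). Of the germfree livers, 2 correlated best with the conventional liver of their own number. The labels do not call the numbers pairs, and they were not taken as pairs in the main fit. Low and high numbers still differed in both groups, in Pck1 and in the first within-group component, as given above. Alternatives covered background correction, scaling, filters, probes, array weights, covariates, the block and each liver left out in turn.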

Additional observations from a re-analysis of the deposited data

How the results depend on the processing

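No member changed sign in any of the 16 alternatives or the 30 fits without 1 liver. Of the counts, 590 genes, 4 members and 5 pairs passed. Leaving out each liver in turn gave 519 to 609 genes, 3 to 5 members and 3 to 6 pairs. Under median scaling 69 genes (42 higher and 27 lower), 1 member and 12 pairs passed, and Fbp1 with Slc37a4 and Pcx with Slc37a4 turned to r = 0.62 and 0.57, against -0.32 and -0.30, neither past the threshold in the main setting. Without the arrays of mean raw signal under 160, 2 members passed, Fbp1 and Pygl. In germfree livers alone 0 pairs passed by permutation (4 at an unadjusted p under 0.05). The last 2 settings hold fewer livers, and the cause under median scaling was not tested. The replicate block over 28 arrays gave 497 genes and 3 members, Ppargc1a being lost (0.64, limma adjusted p = 0.0566), and the same 28 arrays without the block gave 476 genes and 3 members, Pcx being lost. Pcx was also lost without the filter (limma adjusted p = 0.0828) and in the fit of every probe (0.0511). G6pc passed under cyclic loess, the stricter filter, array weights, and with mean raw signal or the first component as covariate (limma adjusted p = 0.0288 to 0.0489). The change of Ppargc1a ran from 0.38 to 0.73 over the alternatives.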

Other observations

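At the other end of the likeness ranking, chosen after their values were seen, the genes most opposed to G6pc over the 30 livers were Piga (r = -0.83), Saa3 (-0.81) and Socs3 (-0.80). Saa3, a serum amyloid A gene, and Socs3, a feedback inhibitor of cytokine signalling, are induced in inflammation. Saa3 with G6pc was -0.58 within germfree and -0.88 within conventional livers, and -0.73 without conventional livers 14 and 15. Socs3 with G6pc was -0.51 within germfree and -0.89 within conventional livers, and -0.66 without those livers. The genes most opposed to Pck1 were Psmc1 (-0.82), Ndufa2 (-0.77) and Serping1 (-0.77), while Ndufb9, another subunit of respiratory complex I, was its closest gene at 0.94. These were picked as extremes among 7831 named genes and carry no test.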
